A study of Mus musculus with 2 samples.

Results

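A set of 10 CC chemokine genes, chosen by symbol (Ccl2, Ccl3, Ccl4, Ccl5, Ccl7, Ccl8, Ccl9, Ccl11, Ccl20 and Ccl25) were followed in ATDC5, a mouse chondrogenic cell line. They were found as array spots whose transcript accession belongs to one of these genes, which gave 11 probes and 20 spots for all 10 genes, out of 20657 named genes and 59305 non-control spots. The study compared 1 culture expressing A-CEBP with 1 culture expressing GFP. A-CEBP blocks C/EBP transcription factors by dimerising with them, so that they no longer bind DNA, and GFP is the control transgene. In both stable lines the transgene was inducible by doxycycline, given at 2 µg/mL for 2 days, and both were differentiated with insulin, transferrin and selenite (ITS) for 3 weeks. Whether a line was 1 clone or a pool, and whether doxycycline was kept on during the 3 weeks, is not stated by the labels. Expression of neither transgene was checked.

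With 1 array per group, no spread between cultures could be estimated, so no p-value was computed and no difference has a replicate check. The transgene, the line and the single culture cannot be told apart. Of the non-control spots, 58.0% were well above background on the A-CEBP array and 54.6% on the GFP array, and none was saturated. Signals are given in intensity units with the error estimate that the scanner software gives each spot, which covers the measurement only. Differences are A-CEBP minus GFP on the log2 scale, after each array was set to its own 75th percentile. A gene that was well above background on 1 array only was given a lower bound on its fold. Chondrocyte markers were present on both arrays, with 15 of 17 well above background on both, against 13860 of 20657 named genes. Of these 15, 4 were higher in A-CEBP by 2-fold or more, against 1.26% of all genes seen on both arrays. They were Hapln1, Snorc, Acan and Cnmd (1.42, 1.37, 1.30 and 1.02). By that size 0 were lower, against 1.7% of all genes. The median of the 15 was 0.63, against 0.05 over all genes seen on both arrays. Col2a1 differed by 0.43 and Sox9 by 0.61. Only Comp (-0.04) and Sox5 (-0.06) lay below 0. Cnmd was within 2-fold under 3 alternatives (at its lowest 0.86, with normexp background), and Col10a1, at 0.97, was past 2-fold under 3.

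CC chemokines are small secreted proteins, named for a pair of adjacent cysteines, that bind G protein-coupled receptors on leukocytes and draw those cells along a gradient held on heparan sulfate. Stromal cells, chondrocytes among them, make several of them when they meet inflammatory cytokines or microbial products. Their genes lie in clusters, and in mouse most of the ones described here lie on chromosome 11, with Ccl20 on chromosome 1 and Ccl25 on chromosome 8.

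Of the 10 genes, 7 were well above background on at least 1 array, as were 14707 of the 20657 named genes. Of these 7 members, 6 were at least 2-fold lower in the A-CEBP sample. Across all 14707 named genes seen on at least 1 array, 2.26% were lower by that size, bounds included, and 1.62% were higher. Ccl2, Ccl7 and Ccl3 had the largest differences, Ccl9, Ccl5 and Ccl8 had smaller ones, and Ccl25 was within 2-fold. Ccl4, Ccl11 and Ccl20 were not well above background on either array, so their transcripts were not detectable here. Ccl3 entered the 7 through the GFP array alone, as did 0.833% of the 20657 named genes. Of the 6 genes seen on both arrays, 5 were lower by 2-fold or more, against 1.7% of 13860 genes, and none was higher, against 1.26%. Ccl2 and Ccl7 were lower by 8-fold or more, against 0.188% of those genes. The median difference of the 6 was -2.41, or -2.76 with Ccl3 at its bound. The median over all genes seen on both arrays was 0.05. In bulk RNA such as this, fewer cells of a type and less RNA per cell cannot be told apart.

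**Figure D1:**
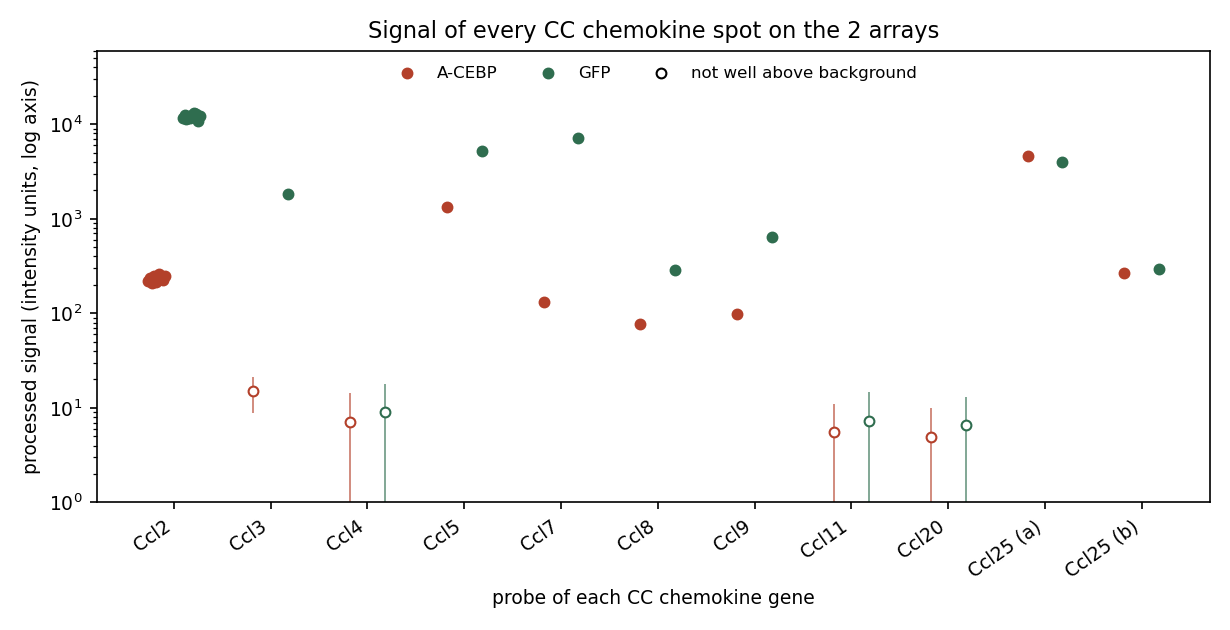
Processed signal of each CC chemokine spot in intensity units on a log axis, A-CEBP left of GFP for each probe. Bars are the scanner's error estimates, cut off at the foot of the axis for the dimmest spots, and are hidden by the points for bright ones. Open points were not well above background. Ccl25 (a) is the probe of the protein-coding transcript and (b) that of the non-coding one. The Ccl2 spots lay between 209 and 264 in A-CEBP and between 10886 and 13116 in GFP.

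Monocyte chemoattractants came first. Ccl2 encodes MCP-1, the main ligand of Ccr2, which draws monocytes out of blood into tissue. It was the only member with replicate spots, 10 on each array. In the A-CEBP sample the 10 spots ranged from 209 to 264 intensity units with a median of 239. In the GFP sample they ranged from 10886 to 13116 with a median of 11948. No spot of one array came near the range of the other. The log2 difference was -5.73, or 53.1-fold lower in the A-CEBP sample, with an SD of 0.07 over the 10 spots and single spots between -5.81 and -5.63.

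Ccl7 encodes MCP-3, a further ligand of Ccr2 and of other CC receptors, and its gene lies next to Ccl2. Its 1 spot gave 131 ± 14.6 units in the A-CEBP sample and 7142 ± 714 in the GFP sample. The difference of -5.82 was close to that of Ccl2, and was -5.15 with normexp background. Ranked over the 13860 genes from the most negative difference, Ccl7 was 3 and Ccl2 was 4.

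Ccl8 encodes MCP-2, which in mouse acts through Ccr8. It read 76.4 ± 10.4 units in the A-CEBP sample and 287 ± 30.1 in the GFP sample. The difference was -1.96, or 3.90-fold lower, and the error model of the scanner gave it an error of 0.25. The spot stood at 3.5 times its local background in the A-CEBP sample and 7.93 times in the GFP sample, and the difference was -1.28 with normexp background.

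Ligands of Ccr1 formed the next group. Ccl3 encodes MIP-1 alpha, which acts on macrophages and T cells. It read 14.98 ± 6.18 units in the A-CEBP sample, which was not well above background, and 1852 ± 185 in the GFP sample. It was at least 77.5-fold lower, since the lowest signal well above background on the A-CEBP array was 24.8 units. Of the 172 genes seen in the GFP sample only, 4 had a larger bound. Such bounds mainly follow the GFP signal, so their order is not an order of decrease. With normexp background the bound of Ccl3 was -4.45 on the log2 scale, against -6.28. Ccl4, which encodes MIP-1 beta and is a close relative of Ccl3, read 7.09 ± 7.11 units in the A-CEBP sample and 8.95 ± 8.97 in the GFP sample, no larger than its error on either array.

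Ccl5 encodes RANTES, which draws T cells, monocytes and eosinophils. It read 1319 ± 132 units in the A-CEBP sample and 5275 ± 528 in the GFP sample. The difference was -2.05, or 4.15-fold lower, and the A-CEBP spot still stood at 39.5 times its local background. Ccl9, a Ccr1 ligand of mouse also called MIP-1 gamma, read 98.6 ± 11.2 units in the A-CEBP sample and 645 ± 64.9 in the GFP sample. It was 6.79-fold lower (-2.76, error 0.22).

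Ccl11, which encodes eotaxin and draws eosinophils through Ccr3, read 5.55 ± 5.57 units in the A-CEBP sample and 7.27 ± 7.29 in the GFP sample. Ccl20, the ligand of Ccr6, read 4.97 ± 4.99 units in the A-CEBP sample and 6.57 ± 6.59 in the GFP sample. The readings of these genes and of Ccl4 differed by -0.46 to -0.39 on the scaled log2 axis. Over the 5950 named genes not well above background on either array, the median of this difference was -0.42. No fold is given for them.

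Ccl25, which encodes TECK and guides T cells to thymus and small intestine through Ccr9, differed by less than the error estimate on both of its probes. The probe of its coding transcript read 4607 ± 461 units in the A-CEBP sample and 3971 ± 397 in the GFP sample, a difference of 0.16 with an error of 0.20. The probe of its non-coding transcript read 265 ± 27.3 units in the A-CEBP sample and 292 ± 30.5 in the GFP sample, a difference of -0.19 with an error of 0.21. The probes lay on opposite sides of 0, and their mean was -0.02.

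**Figure D2:**
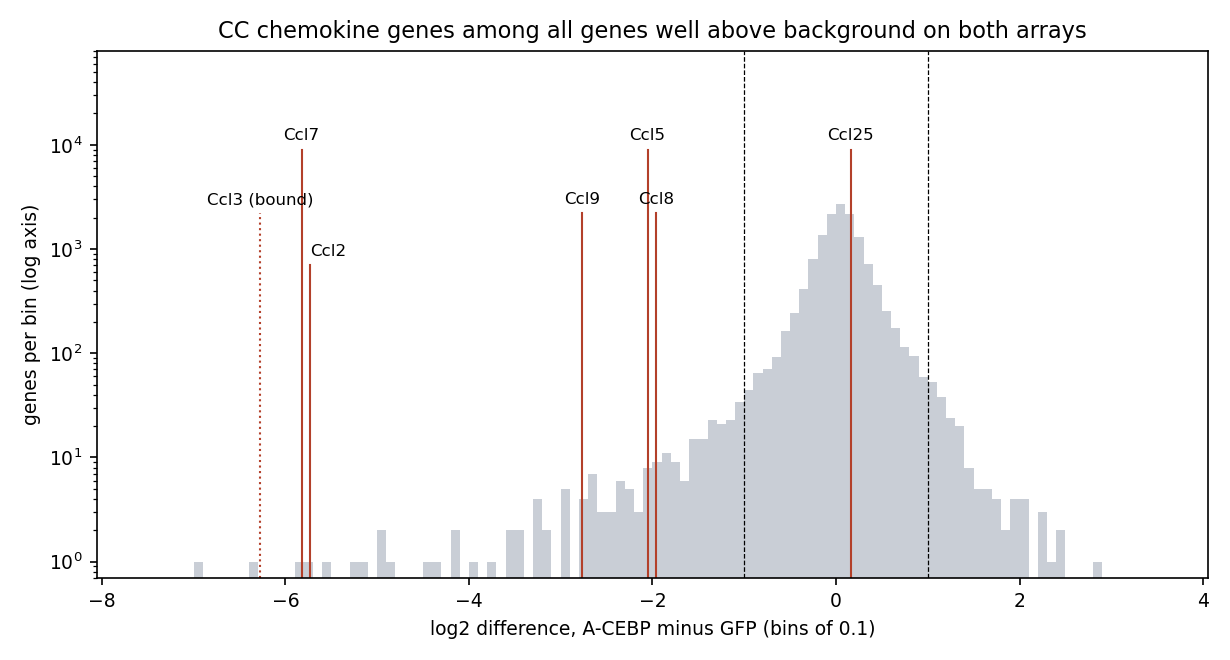
Histogram of the log2 difference, A-CEBP minus GFP, for the 13860 genes well above background on both arrays, with genes per bin on a log axis. Solid lines mark the CC chemokines measured on both arrays, the dotted line the bound of Ccl3, and dashed lines a 2-fold difference. Ccl7 and Ccl2 stand at -5.82 and -5.73, Ccl25 at 0.16 inside the main peak.

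Promoters are shown for members on both sides of the comparison: Ccl3, Ccl8 and Ccl9, which were lower, and Ccl25, which was within 2-fold. RefSeq promoters on build GRCm38.p6, each 250 bases before to 50 after a gene start, matched 5 of the 10 members (Ccl3, Ccl8, Ccl9, Ccl20 and Ccl25, the last with 2 starts). Capitals mark matches to any of the searched motifs on either strand. These were TTGCGCAA and the relaxed TTNNGNAA for C/EBP, TGANTCA for AP-1, GGGCGG for the GC box, TATAAA for the TATA box, and the NF-kB and interferon response motifs. All are written 5′ to 3′ along the gene's strand.
Ccl3 promoter, chr11:83649329-83649628, minus strand: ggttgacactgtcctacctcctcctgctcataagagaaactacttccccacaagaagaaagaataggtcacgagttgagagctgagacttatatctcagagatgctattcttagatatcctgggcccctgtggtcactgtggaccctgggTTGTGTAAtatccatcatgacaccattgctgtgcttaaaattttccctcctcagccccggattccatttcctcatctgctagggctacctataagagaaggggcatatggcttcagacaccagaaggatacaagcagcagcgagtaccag
Ccl8 promoter, chr11:82114935-82115234, plus strand: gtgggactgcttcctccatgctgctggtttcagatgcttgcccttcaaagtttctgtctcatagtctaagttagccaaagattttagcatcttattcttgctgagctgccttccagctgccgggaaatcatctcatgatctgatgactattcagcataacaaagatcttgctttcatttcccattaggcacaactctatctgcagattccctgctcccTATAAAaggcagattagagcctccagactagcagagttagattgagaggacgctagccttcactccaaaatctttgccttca
Ccl9 promoter, chr11:83578587-83578886, minus strand: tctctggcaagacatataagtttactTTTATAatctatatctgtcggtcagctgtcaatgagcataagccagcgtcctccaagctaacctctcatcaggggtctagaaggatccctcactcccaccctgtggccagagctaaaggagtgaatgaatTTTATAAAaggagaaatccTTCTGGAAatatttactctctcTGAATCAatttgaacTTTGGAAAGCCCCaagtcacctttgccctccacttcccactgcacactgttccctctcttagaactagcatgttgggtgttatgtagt
Ccl25 promoter, first start, chr8:4324960-4325259, plus strand: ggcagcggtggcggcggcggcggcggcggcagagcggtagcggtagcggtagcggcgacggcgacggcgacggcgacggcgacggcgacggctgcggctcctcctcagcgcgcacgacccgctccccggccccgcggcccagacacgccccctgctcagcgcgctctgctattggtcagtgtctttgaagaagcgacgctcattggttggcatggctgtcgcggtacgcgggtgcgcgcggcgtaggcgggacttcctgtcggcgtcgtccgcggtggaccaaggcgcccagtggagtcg
Ccl25 promoter, second start, chr8:4349338-4349637, plus strand: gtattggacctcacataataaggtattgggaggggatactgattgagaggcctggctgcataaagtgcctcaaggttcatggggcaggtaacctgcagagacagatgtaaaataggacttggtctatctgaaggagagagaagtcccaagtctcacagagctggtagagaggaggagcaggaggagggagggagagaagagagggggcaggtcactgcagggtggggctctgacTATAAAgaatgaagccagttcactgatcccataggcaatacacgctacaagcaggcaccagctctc

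Ccl3 held 1 relaxed C/EBP match, TTGTGTAA, from -100 to -93 of the start, and no match to the other motifs. Ccl9 held 2 relaxed C/EBP matches, TTCTGGAA from -75 to -68 and TTTGGAAA from -38 to -31. The second of these overlaps the NF-kB match GGAAAGCCCC from -35 to -26. Ccl9 also held the AP-1 match TGAATCA from -53 to -47 and 3 TATA-type matches, of which 2 overlap. Ccl8 held only a TATA box from -32 to -27. The first start of Ccl25 held none of the motifs and the second a TATA box alone, from -16 to -11. Ccl20, at background on both arrays, held an NF-kB match from -80 to -71.

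Relaxed C/EBP letters are common: 40.7% of the 32851 promoters of the table held one, against 0.183% for the palindrome TTGCGCAA. The shares were 1.63% for the NF-kB motif, 7.81% for AP-1, 35.7% for the GC box, 13.6% for the TATA box and 3.44% for the interferon response. A match describes letters in these windows only, and Ccl2, Ccl4, Ccl5, Ccl7 and Ccl11 had no entry.

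Genes with the most similar difference to that of Ccl7 over the 2 arrays were looked up by rank among the 13860 genes well above background on both arrays. Above it there stood Lcn2 (-6.96) and Cxcl1 (-6.39), and below it Ccl2, Saa1 (-5.56) and Cxcl10 (-5.27). With 2 arrays this likeness is a single difference per gene. Of the 14032 genes seen in the GFP sample, 0.135% (19 genes) were at least 32-fold lower, bounds included. Among them were 3 CC chemokines, namely Ccl2, Ccl7 and, by its bound alone, Ccl3. Genes enter this count through the GFP array, where such genes are high.

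The spots around the members were read as a local check of the slide. The 231 spots well above background on both arrays within 2 rows and columns of a member spot had a median difference of 0.06, with quartiles of -0.14 and 0.21. The differences of Ccl2, Ccl5, Ccl7, Ccl8 and Ccl9 lay outside those quartiles, and so did that of the non-coding Ccl25 probe (-0.19). Many spots lie outside quartiles by definition, so this is no test of the members. Probe sequences were not used here, and signal shared between close relatives was not measured.

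The genes were then read in chromosome order. In the first cluster of chromosome 11, Ccl2, Ccl7, Ccl11, Ccl12, Ccl8 and Ccl1 follow each other. Here the lower genes Ccl2, Ccl7 and Ccl8 are interleaved with Ccl11, Ccl12 and Ccl1, which were at background on both arrays. The nearest measured genes beyond Ccl1, Cct6b and Zfp830, differed by -0.11 and 0.15. In the second cluster, Ccl5, Ccl9, Ccl6, Ccl3 and Ccl4 follow each other, with Ccl6 and Ccl4 at background on both arrays. On the Ccl5 side the nearest measured gene, Taf15, differed by -0.04. On the Ccl4 side came 3 WAP-domain genes: Wfdc17 was at least 95.0-fold lower, Wfdc18 was 11.4-fold lower (-3.51) and Wfdc21 was at least 12.2-fold lower. With normexp background the log2 bounds were -4.62 for Wfdc17 and -1.96 for Wfdc21, against -6.57 and -3.61. These flanking genes lie outside the clusters and were singled out because of their values. The neighbours of Ccl25, Elavl1 and Cers4, differed by 0.14 and 0.39.

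**Figure D3:**
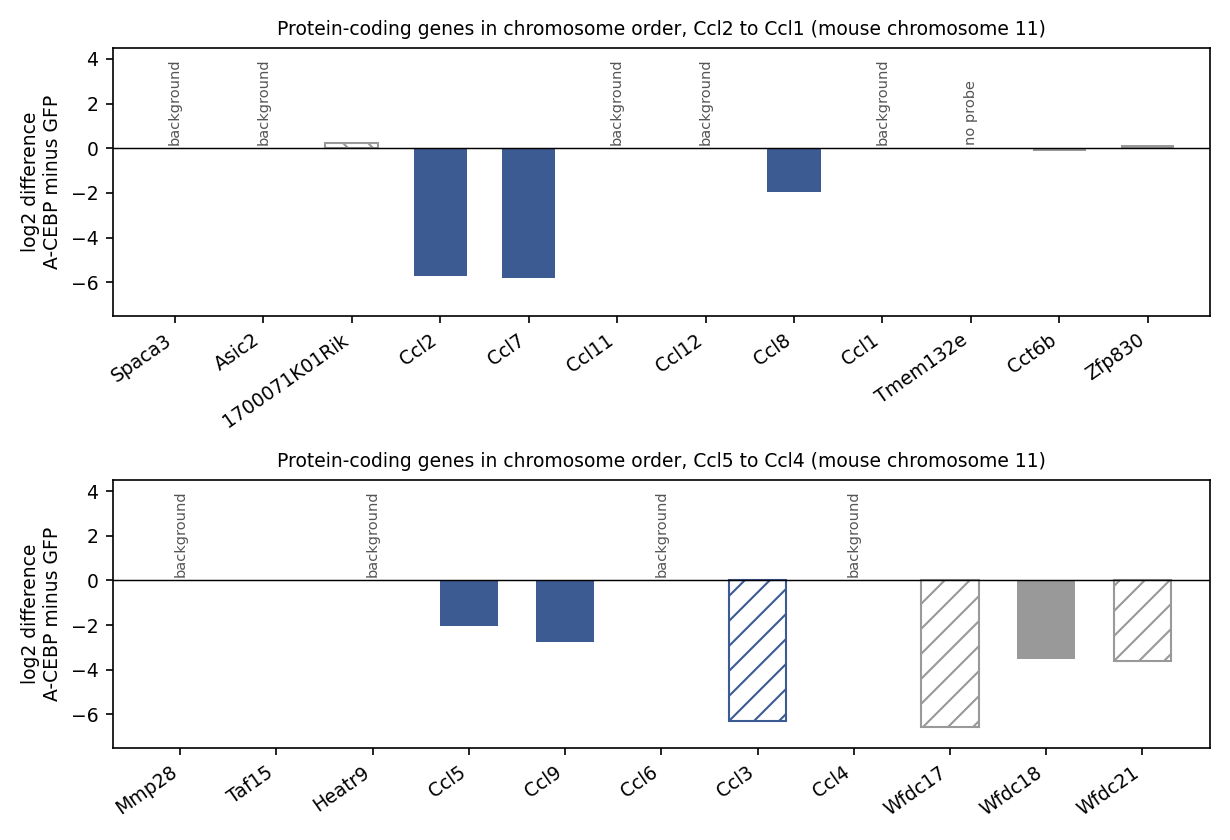
Log2 difference, A-CEBP minus GFP, for protein-coding genes in chromosome order across both CC clusters of mouse chromosome 11, with 3 flanking genes on each side. Blue marks the clusters and grey the flanks, and hatched bars are bounds for genes well above background on 1 array only. Ccl2 and Ccl7 reach -5.73 and -5.82 beside background genes, and the flank after Ccl4 holds Wfdc17 with a bound of -6.57.

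Of 10 other CC ligands with a probe, 3 were seen, on both arrays, and none was 2-fold apart. Over all genes seen on both arrays, 1.7% were lower by that size and 1.26% higher. A count of 0 among 3 therefore does not set this list apart from genes in general. Ccl17, a Ccr4 ligand, read 393 ± 39.7 units in the A-CEBP sample and 617 ± 62.2 in the GFP sample, a difference of -0.71. Ccl19, a Ccr7 ligand, differed by 0.08, with its other measured probe at -0.13. Ccl27a, a Ccr10 ligand, differed by 0.16, with its 3 probes between 0.03 and 0.16. The other 7, namely Ccl1, Ccl6, Ccl12, Ccl22, Ccl24, Ccl26 and Ccl28, were not well above background on either array.

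Receptors were read on the same arrays. Of 16 CC and atypical receptor genes, 7 were well above background on both arrays, 1 in the GFP sample only and 8 on neither. Ccr9, the receptor of Ccl25, read 24.8 ± 7.10 units in the A-CEBP sample, which was not well above background, and 1583 ± 159 in the GFP sample. It was at least 66.2-fold lower, while Ccl25 itself was within 2-fold. This bound was exceeded by 6 of the 172 genes seen only in the GFP sample, an order that mainly follows the GFP signal. With normexp background the log2 bound of Ccr9 was -4.12, against -6.05. Ccr9 had 1 probe and 1 spot, so no second probe bears on this value. Its neighbours on chromosome 9, Lztfl1 and Fyco1, differed by 0.04 and 0.06.

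Ccr2, the receptor of Ccl2 and Ccl7, and Ccr1, a receptor of Ccl3, Ccl5 and Ccl9, were not well above background on either array. Ccr8 read 101 ± 12.2 units in the A-CEBP sample and 114 ± 14.6 in the GFP sample (-0.23). Ccr7 differed by -0.75 and Ccr3 by -0.12. Of the atypical receptors, which take up chemokines without G protein signalling, Ackr2, a scavenger of inflammatory CC chemokines, read 108 ± 12.2 units in the A-CEBP sample and 195 ± 20.9 in the GFP sample (-0.90). Ackr3, which binds CXC ligands, differed by 0.03, Ackr4 by 0.01 and Ccrl2 by 0.21. The receptor list's median was -0.12, against 0.05 over all genes, and it was 0.074 with spike-in scaling.

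Proteases and heparan sulfate carriers shape chemokine gradients outside the cell. Of 11 proteases, 7 were seen on both arrays and 3 of these were lower by 2-fold or more, against 1.7% of all genes, namely Mmp3 (-3.90, or -3.18 with normexp background), Mmp13 (-1.07) and Ctsk (-1.02). Mmp13 was within 2-fold with spike-in scaling (-0.88). Ctsk was within 2-fold under 4 alternatives, and was at -0.69 with normexp background. Dpp4, which trims the amino end of several chemokines, was not well above background on either array. Of 12 heparan sulfate carrier and synthesis genes, 11 were seen and none was 2-fold apart. The shares over all genes were 1.7% lower and 1.26% higher, so this does not set the list apart. Gpc1 differed by 0.70, Sdc2 by 0.08 and Sdc4 by -0.17, and Sdc3 by 0.86, or 1.05 with spike-in scaling.

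A list of 34 upstream genes held cytokines, receptors and transcription factors known to act on chemokine expression, and also brakes on that signalling such as Nfkbia, Tnfaip3, Zfp36 and Zc3h12a. Of these, 27 were seen on both arrays, 10 of them lower by 2-fold or more, against 1.7% of all genes, and 0 higher, against 1.26%. Their median was -0.53. The cytokine gene Il6 differed by -4.11. Zc3h12a, an RNase that degrades inflammatory transcripts, differed by -2.66, or -2.01 with normexp background, the receptor gene Tlr2 by -2.36 and Nfkbiz, a nuclear I-kappa-B protein, by -1.92. Cebpd differed by -1.88, Nfkbia by -1.46, Tnfrsf1b by -1.35 and Relb by -1.13. Irf1 lay just past the rule, at -1.05, and was within 2-fold with spike-in scaling (-0.85), as was Relb (-0.94). Tnfrsf1b was within 2-fold with normexp background (-0.67). Il1a, Il1b and Tnf, the classic inducers of Ccl2, were not well above background on either array, and neither were Il17a, Ifng and Ifnb1. Rela, the NF-kB subunit, differed by -0.10, and the receptor genes Il1r1 and Tnfrsf1a by 0.31 and -0.16.

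**Figure D4:**
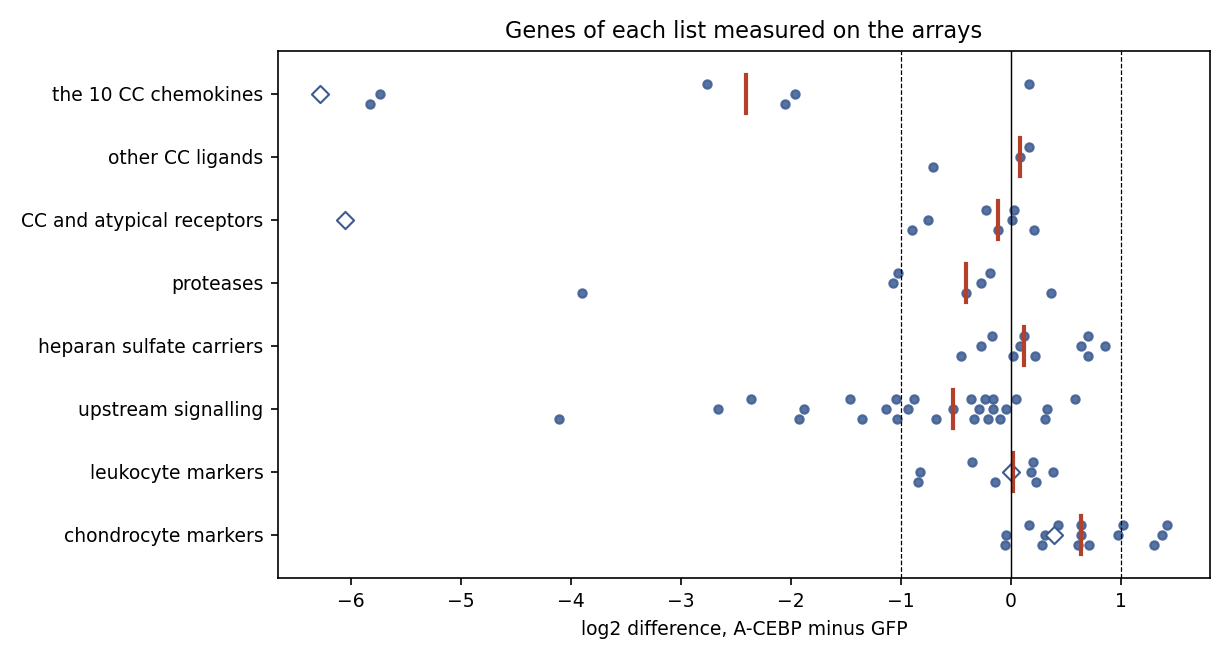
Log2 difference, A-CEBP minus GFP, for the genes of each list well above background on both arrays (points), with bounds for genes seen on 1 array (diamonds), list medians over the points (red bars) and 2-fold limits (dashed). The CC chemokines have a median of -2.41, upstream signalling -0.53, leukocyte markers 0.02 and chondrocyte markers 0.63.

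Leukocytes are a source of CC chemokines, so their markers were read beside these results. Of 20 leukocyte markers, 18 had a probe matched by name (Cd68 and Ly6g had none). Of these, 8 were well above background on both arrays, 1 on the A-CEBP array only and 9 on neither. Over all 20657 named genes, 13860 were seen on both arrays. Ptprc, which encodes the pan-leukocyte antigen CD45, was at background on both arrays, as were Adgre1, Itgax, Cx3cr1, Spi1, Tyrobp, Aif1 and Cd52. The summed level of the list, in units of each array's 75th percentile, was 29.7 in the A-CEBP sample and 26.6 in the GFP sample, and most of it came from 1 probe of Itgam, whose 2 measured probes differed by -0.57 and 0.23. Csf1r read 1403 units in the A-CEBP sample and 1492 in the GFP sample, and Cd3e 824 and 692. By the brightest probe, Cd14 (-0.84), Lyz2 (-0.83), Fcer1g (-0.36) and Csf1r (-0.14) lay below 0. Laptm5 (0.38), Itgam (0.23), Cd3e (0.20) and Coro1a (0.18) lay above 0. The other measured probe of Csf1r gave 0.36. The median difference was 0.02. None of the 8 was 2-fold apart, against 1.7% of all genes lower by that size and 1.26% higher. One probe of the macrophage marker Adgre1 read 21.4 ± 6.74 units in the A-CEBP sample and 898 ± 150 in the GFP sample, where its spot was marked as non-uniform and was left out. The other Adgre1 probe was not well above background on either array. Whether leukocytes had a part in the CC chemokine differences was not tested.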

How the data were processed

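Each culture gave 0.1 µg total RNA, labelled with Cy3 for a 1-colour Agilent mouse array, per the labels' protocols. Intensity in the deposited scanner files is linear, with background subtracted and spatial trend removed by Feature Extraction (10.10.1.1, per the submitters' processing notes) and no scaling between arrays, per the file headers. The 2 arrays shared 1 slide and 1 scan. A second deposited table holds this intensity times a constant, 1.15 for A-CEBP and 1.24 for GFP (medians 67.4 and 70.9), linear and uncentred, and the sources used here do not say how the constants arose.

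From these files, log2 of the processed signal minus each array's 75th percentile (906 units for A-CEBP and 872 for GFP, over non-control spots) was computed with Python 3.11.15 and pandas 2.3.3. Outlier-marked spots (293) were left out, and spots of a probe were averaged. Detection of a probe needed the scanner's well-above-background mark on over 50% of spots. A gene took its brightest probe measured on both arrays. A bound compared the bright value with whichever was larger on the dim array, the lowest detected value or the probe's own, and ignores error in the dim value. The size rule was 2-fold. Probes were named by transcript accession through a RefSeq table of GRCm38.p6: 27229 of 55671 (48.9%) matched 1 gene, and 28442 stayed unnamed. The array design used mm9, so RefSeq coordinates serve for names, gene order and promoters only.

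Measurement error came from replicate spots (SD of the log2 difference 0.11 over 291 probes), from different probes of a gene (0.19 over 3601 genes) and from the scanner's error estimate. The number of arrays limits the precision. The procedure was run on simulated data with known folds for 14033 genes. All 200 changed genes were recovered and 0 unchanged genes were called. Every known fold was well past the 2-fold rule, and the detection marks were copied from the GFP array. Folds near the rule and loss of detection were therefore not simulated. The simulation gave no separate result for bounds. It also cannot show how far real cultures differ, so it does not test the 2-fold rule between cultures. The members, lists and rules were chosen with earlier results of these data known. The rule named every member, list genes at least 2-fold apart (up to 8, or the 3 brightest where none was), the 3 genes ranked on each side of the member with the largest difference, and genes lying between members. Other list genes are named as context, after their values were seen. Alternatives changed the scaling, background, detection mark, outlier spots, probe rule and source of values. Mean spot signals were not in the files, so normexp (limma 3.58.1, offset 50) used the median signal and median background. Spike-in scaling used 8 control probes. Some genes counted in the lists are not reported here by name.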

Additional observations from a re-analysis of the deposited data

How the results depend on the processing

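Under 13 alternatives for each member, Ccl2, Ccl3, Ccl5, Ccl7, Ccl8 and Ccl9 kept their direction and stayed at least 2-fold lower. Ccl25 stayed within 2-fold. The probe and outlier alternatives could not move the lower members, each with 1 probe and no outlier-marked spot. Among them the detection marks could move only Ccl3, and several scalings shift all genes alike. The lowest and highest log2 differences were -5.78 and -5.29 for Ccl2, -5.87 and -5.15 for Ccl7, -2.01 and -1.28 for Ccl8, -2.11 and -1.86 for Ccl5, -2.81 and -2.19 for Ccl9, and -0.02 and 0.35 for Ccl25. Values moved by more than the scanner's error only with normexp background, which raises dim readings by its offset (Ccl2 -5.29, Ccl7 -5.15, Ccl8 -1.28, Ccl9 -2.19 and the bound of Ccl3 -4.45), and for Ccl3 with another detection mark or none, where its plain ratio was -7.00. Ccr9 ranged from -6.10 to -4.12.

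The array had 236 genes at least 2-fold lower and 174 higher (42.4% higher). These counts were 883 and 603 with no filter on dim probes, 565 and 380 with the positive and significant mark, and 527 and 652 at 1.5-fold, since more genes or smaller differences then count. With normexp 174 were lower and 97 higher. Spike-in scaling moved the median of all genes by 0.19, gave 181 lower and 322 higher (64.0% higher), and set list medians at 0.074 for receptors, 0.28 for other CC ligands, -0.22 for proteases, 0.31 for heparan sulfate carriers, -0.33 for upstream signalling, 0.21 for leukocyte and 0.83 for chondrocyte markers. It also left 7 upstream genes lower, against 10, and 1 protease (Mmp3), and put 1 heparan sulfate carrier higher (Sdc3). Without a filter, or with the positive and significant mark, 2 receptors were lower (Ccr9 and Ccr6), 1 other CC ligand was lower (Ccl24) and 2 leukocyte markers were higher (Cx3cr1 and Tyrobp), all but Ccr9 dim on both arrays. Without a filter the medians of receptors and other CC ligands were -0.41 and -0.44, and with the other mark that of upstream signalling was -0.68. With outlier spots kept, 1 leukocyte marker was lower (Adgre1), and with probes averaged the median of other CC ligands was -0.026. No paired analysis was possible because each group holds 1 sample, and for the same reason no sample could be left out. Signals near background limit how well the sizes for genes seen on 1 array only are known.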
